A study of Mus musculus with 2 samples.

Results

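Ligands and receptors of the neurotrophin and GDNF families were followed in whole mouse eyeballs through 9 genes: Bdnf, Ntf3, Ntrk2, Ntrk3, Ngfr, Gdnf, Gfra1, Gfra2 and Ret. They were taken by exact match of the gene symbol in the deposited table, where each symbol has 1 row among 47644 genes. Of the 9 genes, 8 reached an FPKM (reads scaled by transcript length and library depth) of 1 in at least 1 library, and Gdnf did not. The study compared oxygen-induced retinopathy (OIR), in which C57BL/6 pups entered high oxygen at day 7, returned to room air after 5 days and gave their eyes at day 17, with a C57BL/6 control labelled NOR. The labels give neither the age at which the control eyes were taken nor the number of animals behind a library, and each group is 1 library of total RNA. By the purpose stated for the series, the comparison bears on lasting loss of visual function in this model.

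Neurotrophins are small secreted proteins that keep neurons alive and shape their synapses. BDNF binds the receptor tyrosine kinase TrkB (Ntrk2), NT-3 binds TrkC (Ntrk3), and p75NTR (Ngfr) binds all neurotrophins and also their uncleaved precursors. GDNF and its relatives first bind a GFRA co-receptor tethered to the cell surface, GFRA1 for GDNF and GFRA2 for neurturin. The complex then activates the kinase RET. In the retina, TrkB is known in ganglion cells and Müller glia, p75NTR in Müller glia, and both ligand families are known for supporting injured ganglion cells and photoreceptors.

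Reads assigned to genes numbered 20378793 in OIR and 15741235 in NOR. Defining markers of the tissue were present, with a summed FPKM of 17356 in OIR and 17328 in NOR over 10 rod genes. Over 10 lens genes the sums were 74062.5 and 104668, although 1 of the 10, Lim2, had no reads in either library. Ribosomal RNA genes took 0.153% of reads in OIR and 0.00791% in NOR, and 12 genes of corneal and conjunctival epithelium took 0.234% and 0.0782%. The part of these shifts in the values below was not tested. In such bulk samples, fewer cells of a type and less RNA per cell cannot be told apart. Since OIR and NOR are 1 library each, no difference below has a replicate check or a test. The 95% intervals cover counting error only and hold no variation between animals or libraries. They may be too narrow even for counting error, because reads that carry no molecular identifier need not stem from independent molecules.

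Among the ligand genes, 1 start region of Bdnf and 1 of Gdnf hold a run of letters in common. Bdnf is known for its many alternative promoters, each with a first exon of its own, which a count per gene pools, and the RefSeq table for GRCm38.p6 (the assembly of mm10) holds 7 start regions for it, each of 250 bases before and 50 after the start. It holds 2 for Ntf3, 2 for Gdnf and 1 each for Ntrk2, Ngfr and Gfra1, while Ntrk3, Gfra2 and Ret were not matched. Of these 14 regions, 2 hold TGACG, the core of the cAMP response element through which neuronal activity acts on Bdnf, on either strand, and 20.8% of the 32851 regions of that length in the table hold it. These are 1 region of Bdnf and 1 of Gdnf, printed here for that reason in lower case with the matches to the searched motifs in capitals, on the plus strand. The Bdnf region is chr2:109692186-109692485 and the Gdnf region chr15:7809798-7810097, which lies upstream of the start the count table gives for Gdnf.
Bdnf: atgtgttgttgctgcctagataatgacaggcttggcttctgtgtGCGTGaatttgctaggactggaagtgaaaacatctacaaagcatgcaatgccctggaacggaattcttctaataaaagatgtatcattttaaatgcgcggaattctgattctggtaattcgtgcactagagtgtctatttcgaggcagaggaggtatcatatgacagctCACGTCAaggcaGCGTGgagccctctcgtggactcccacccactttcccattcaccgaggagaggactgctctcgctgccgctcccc
Gdnf: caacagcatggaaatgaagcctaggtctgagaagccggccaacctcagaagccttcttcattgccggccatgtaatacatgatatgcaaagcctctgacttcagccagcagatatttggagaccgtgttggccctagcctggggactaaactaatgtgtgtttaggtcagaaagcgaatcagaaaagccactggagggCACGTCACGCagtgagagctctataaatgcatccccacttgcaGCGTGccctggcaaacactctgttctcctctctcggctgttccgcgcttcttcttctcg
In both regions, the match overlaps a match to ACGTG, 1 form of the core bound by hypoxia-inducible factors, in the run CACGTCA. This run was picked after the letters were seen and stands in 2.01% of all regions. It begins 37 bases before the Bdnf start and 52 before the Gdnf start. ACGTG was found in 5 of the 14 regions against 19.6% of all regions, and the other form of the core, GCGTG, in 6 of 14 against 32.4%. The AP-1 site TGANTCA was found in 1 region (a Bdnf region) against 7.81% of all, the E-box CACGTG in 1 (Ntf3) against 7.15%, and the full element TGACGTCA in 0 of 14 against 1.79%. A match is a string of letters and shows no binding.
The start region of Gfra1, the co-receptor with the highest deposited FPKM of the 9 genes, lies on the minus strand at chr19:58455349-58455648. That is inside the span the count table gives for Gfra1, downstream of its start there. The region is shown because Gfra1 stood lower in OIR. None of the searched motifs is in it, which also holds for other regions among the 14, of Bdnf, Ntf3 and Gdnf.
Gfra1: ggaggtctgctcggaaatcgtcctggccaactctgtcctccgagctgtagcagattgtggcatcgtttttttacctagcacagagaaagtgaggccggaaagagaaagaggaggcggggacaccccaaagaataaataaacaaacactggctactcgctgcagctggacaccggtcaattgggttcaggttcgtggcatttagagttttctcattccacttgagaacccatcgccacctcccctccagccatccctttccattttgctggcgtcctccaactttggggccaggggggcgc

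By the deposited FPKM, most receptors were expressed at middling levels, Gfra2 lower, and the ligands at low ones. In OIR, Gfra1 had the highest level of the 9 genes at 15.4 FPKM, against 20.2 FPKM in NOR. Ntrk3, Ntrk2 and Ngfr followed in OIR at 13.3, 11.3 and 11.2 FPKM, against 10.6, 10.8 and 10.6 FPKM in NOR. Ntrk2 and Ngfr did not differ from each other beyond counting error in OIR, and in NOR neither Ntrk2 from Ntrk3 nor Ntrk3 from Ngfr did. Ret and Gfra2 came next in both libraries. The ligands were lowest, and Ntf3 and Bdnf did not differ from each other beyond counting error in either library. Gdnf was below both. In the level of FPKM, Gfra1 stood above 60.8% of the 15883 genes that reached an FPKM of 1 in OIR or NOR when levels in OIR were ranked, and above 69.9% when levels in NOR were. For Gfra2 these shares were 28.6% in OIR and 40.5% in NOR, and for Bdnf 10.4% in OIR and 16.1% in NOR.

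**Figure D1:**
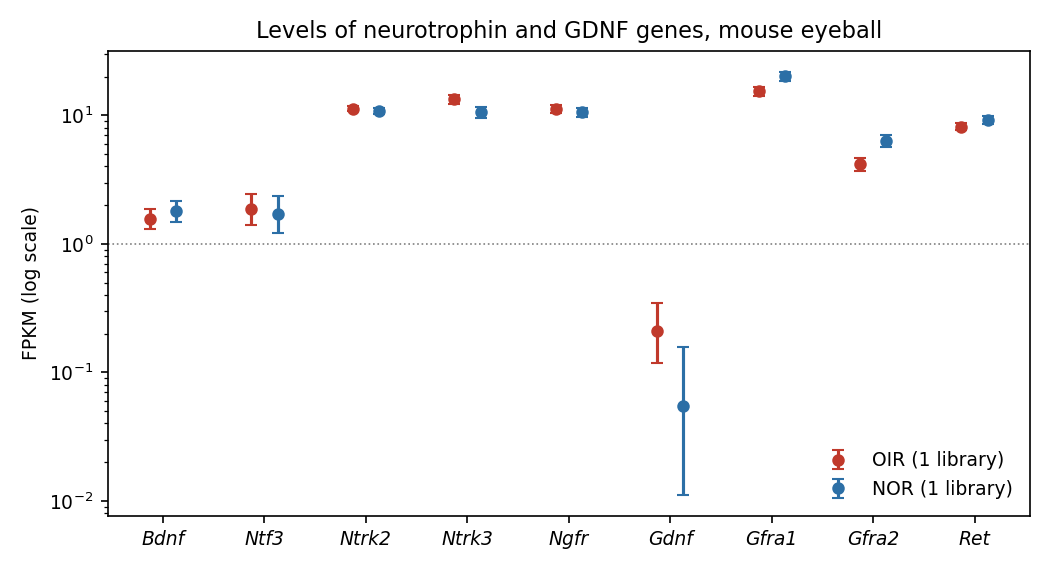
FPKM of the 9 genes in the OIR library (red, left of each pair) and the NOR library (blue), on a log scale, with exact 95% Poisson intervals of the read counts; the dotted line marks an FPKM of 1. Gfra1 and Gfra2 stand lower in OIR with intervals that do not overlap, and Gdnf lies below 1 in both libraries.

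None of the 8 tested members was at least 2-fold higher or lower in OIR. The measure was the difference of log2(FPKM + 1), OIR minus NOR, which understates changes at low FPKM, and the 15883 genes that reached an FPKM of 1 are called tested although no statistical test was made. Of all 15883 tested genes, 3.07% were at least 2-fold higher and 0.718% at least 2-fold lower, or 487 against 114 genes, and with CPM, reads scaled by depth alone, 451 against 30. At 1.5-fold, 0 of the 8 members were higher or lower, against 9.11% higher and 2.58% lower among tested genes. The members' differences ran from -0.51 to 0.30 with a median of -0.03, beside a median of 0.11 over all tested genes. On TPM, FPKM rescaled to a fixed sum, the members' median was 0.05 beside 0.21 over all genes tested there. Of the 8, 4 lay above 0 and 4 below. With differences taken from the median of tested genes, only Ntrk3 lay above and 7 lay below.

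The GDNF receptor genes and Ntrk3 differed from a ratio of 1 by more than counting error. The 95% interval of the ratio of read shares lay below 1 for 3 of the 8, Gfra1, Gfra2 and Ret, against 14.7% of tested genes, and above 1 for 1 of the 8, Ntrk3, against 36.7%. An interval off 1 was thus common among all genes. The median ratio over tested genes was 1.09. The authors' own library factors shift each gene's log2 read-share ratio by -0.14 and put the median difference of tested genes at -0.01, and these 4 intervals kept their side of 1.

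**Figure D2:**
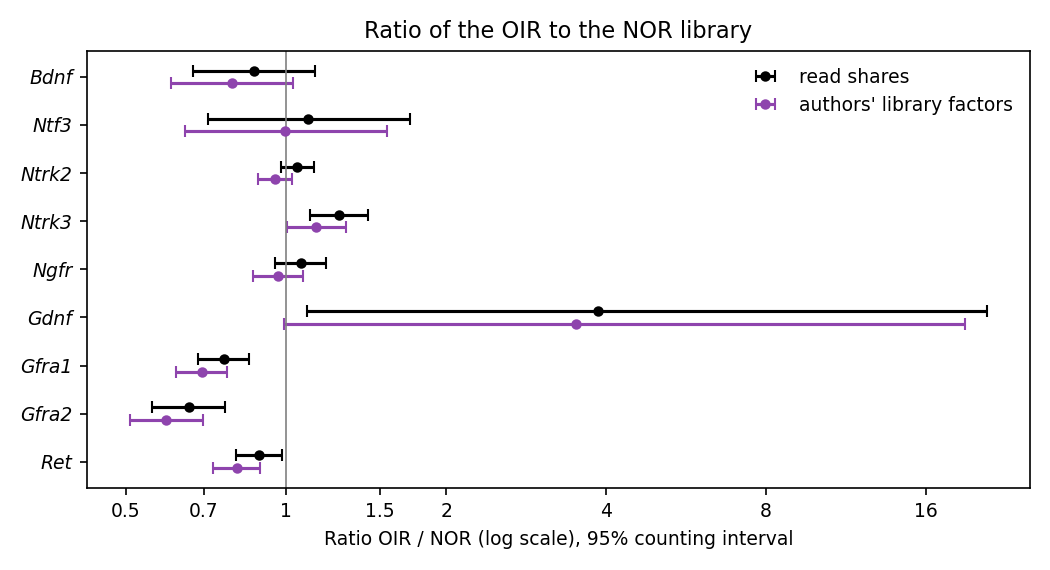
Ratio of the OIR to the NOR library for each gene on a log scale, from read shares (black) and with the authors' library factors (purple); bars are exact 95% counting intervals. Gfra1, Gfra2 and Ret lie below 1 and Ntrk3 above 1 on both scalings, while Ntf3, Ntrk2 and Ngfr lie on opposite sides of 1.

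The values of the 3 ligand genes rested on few reads. Bdnf (ENSMUSG00000048482, mm10 chromosome 2, 109674700 to 109727007) drew 125 reads in OIR and 111 in NOR, which is 1.56 and 1.79 FPKM. The read-share ratio was 0.870 with an interval of 0.668 to 1.13, so no difference was detectable at this depth. Ntf3, the NT-3 gene (ENSMUSG00000049107, chromosome 6, 126101412 to 126166910), rested on 54 reads in OIR and 38 in NOR, equal to 1.88 and 1.71 FPKM. Its ratio was 1.10 (0.712 to 1.71). Gdnf (ENSMUSG00000022144, chromosome 15, 7811011 to 7837575) was barely detected, by 15 reads in OIR and 3 in NOR, at 0.210 and 0.0543 FPKM. Its ratio of 3.86 had a very wide interval, 1.09 to 20.8, and with the authors' factors the interval of 0.992 to 18.9 included 1. The 3 ligands together had 194 reads in OIR and 152 in NOR, a ratio of 0.986 (0.793 to 1.23).

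The neurotrophin receptors stood close to their control levels, with Ntrk3 highest relative to NOR. Ntrk2, the TrkB gene (ENSMUSG00000055254, chromosome 13, 58806596 to 59133970), drew the most reads of the 9 genes, 1789 in OIR and 1316 in NOR, and its difference was 0.06. Its ratio of 1.05 (0.977 to 1.13) became 0.953 with the authors' factors. Ngfr, the p75NTR gene (ENSMUSG00000000120, chromosome 11, 95568818 to 95587735), drew 790 reads in OIR and 573 in NOR, with a ratio of 1.06 (0.955 to 1.19), or 0.967 with the authors' factors. The sign of the Ntrk2, Ngfr and Ntf3 differences was positive on the FPKM scale and negative with the authors' factors, with centring on the median gene and with centring by transcript length. Ntrk3, the TrkC gene (ENSMUSG00000059146, chromosome 7, 78175959 to 78738012), drew 652 reads in OIR and 401 in NOR and had a difference of 0.30, above 73.8% of tested genes. Its ratio was 1.26 (1.11 to 1.43), and 1.14 (1.01 to 1.29) with the authors' factors, and its difference was positive under every scaling tried, from 0.15 to 0.40. Within the libraries, the FPKM of Ntrk2 was 0.848 times that of Ntrk3 in OIR and 1.01 times in NOR, a ratio of ratios of 0.836 (0.722 to 0.967), a pair added after the values were seen. The Ntrk2 to Ngfr ratio was 1.00 in OIR and 1.02 in NOR.

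Counts per gene pool receptor forms with different functions. TrkB is known as a full-length kinase and as truncated forms without the kinase, which are common in glia. The GENCODE M21 gene models on mm10 give Ntrk2 7 coding transcripts, of which 2 have a coding length of 2463 bases and 5 have 1398 to 1476 bases. The table holds 1 value per library for the gene, so no balance between the forms was measured. The span of Ntrk3 overlaps 4 other genes of the table, which had 16 reads in OIR and 12 in NOR together. The span of Gfra1 overlaps 1 other gene there, with 0 reads in both libraries, and the remaining members overlap none in the table.

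The GDNF receptor genes stood lower in OIR as a group of 3. Gfra2 (ENSMUSG00000022103, chromosome 14, 70890130 to 70979838), the neurturin co-receptor, drew fewer reads in the deeper library, 294 in OIR and 346 in NOR, and stood at 4.17 and 6.35 FPKM. Its ratio was 0.656 (0.560 to 0.769), and only 3.78% of tested genes had a lower difference than its -0.51. Gfra1 (ENSMUSG00000025089, chromosome 19, 58235604 to 58455909), the GDNF co-receptor, drew 646 reads in OIR and 653 in NOR, with a ratio of 0.764 (0.684 to 0.853). Of tested genes, 7.42% had a lower difference than its -0.37. Ret (ENSMUSG00000030110, chromosome 6, 118151745 to 118197718), the shared kinase, drew 830 reads in OIR and 721 in NOR and stood at 8.18 and 9.20 FPKM. Its ratio of 0.889 (0.804 to 0.984) was nearest to 1 of the 3, with a difference of -0.15. The 3 genes summed to 27.8 FPKM in OIR and 35.7 in NOR. All 3 differences were negative under every setting tried, and Gfra2 lay past 1.5-fold lower in 6 of them, among them the authors' factors at -0.62.

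Gfra2 was lower relative to Ret as well. Gfra2 had 0.509 times the FPKM of Ret in OIR and 0.690 times in NOR, a ratio of ratios of 0.738 (0.611 to 0.892) that does not depend on library scaling. For Gfra1 and Ret the values were 1.88 in OIR and 2.19 in NOR, with 0.859 (0.739 to 0.999). The Gfra1 to Gfra2 ratio was 3.70 in OIR and 3.18 in NOR, and its interval of 0.959 to 1.41 around 1.16 included 1.

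**Figure D3:**
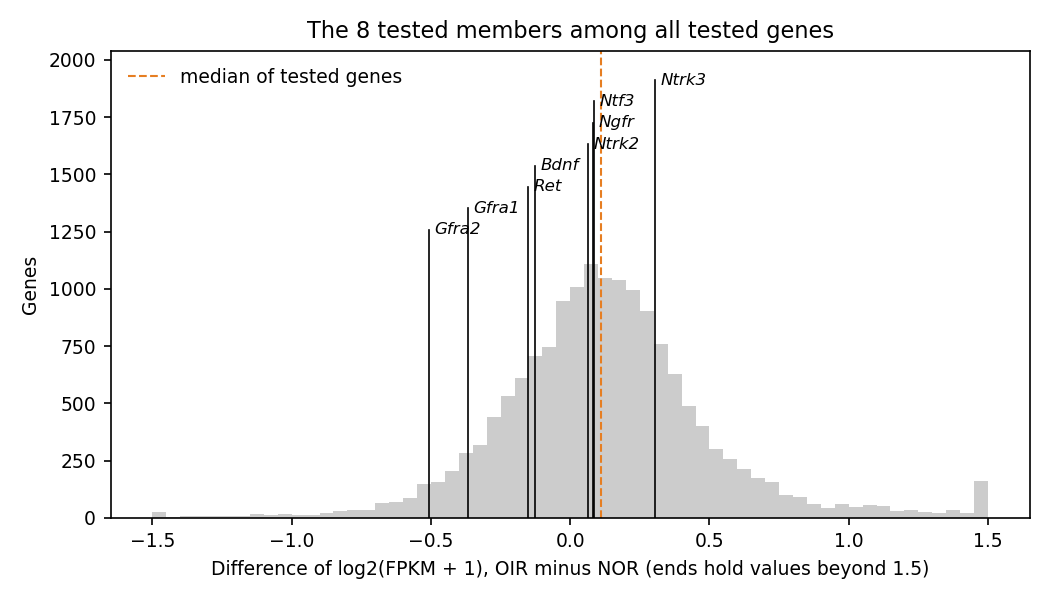
Differences of log2(FPKM + 1), OIR minus NOR, for the 15883 tested genes (grey, bins of 0.05, the end bins holding values beyond 1.5), with the 8 tested members as vertical lines and the median of all tested genes dashed. Gfra2 and Gfra1 lie in the lower flank at -0.51 and -0.37, and Ntrk3 lies above the median at 0.30. Ret and Bdnf lie below the median at -0.15 and -0.13, and Ntf3, Ngfr and Ntrk2 lie near it.

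Most markers of retinal ganglion cells, amacrine cells and Müller glia stood below 0 in the same comparison. The 12 ganglion cell markers had a median difference of -0.51, with 11 below 0, and a summed level of 299.6 FPKM in OIR and 438.5 in NOR. The 12 amacrine markers had a median of -0.16 with 11 below 0, at 527 FPKM in OIR and 671 in NOR. Of the 6 horizontal cell markers 4 were tested, with a median of -0.24, and the list summed to 181 FPKM in OIR and 180 in NOR. The 12 Müller glia markers had a median of -0.36 with 9 below 0, at 1800 FPKM in OIR and 2686 in NOR. Most of that sum was Glul, the glutamine synthetase gene, at 1017 FPKM in OIR and 1753 in NOR, and 2 of the 12 were at least 2-fold higher in OIR. Markers of reactive glia went the other way, with all 12 above 0, 10 of them at least 2-fold higher, a median of 1.83 and a sum of 920 FPKM in OIR and 448 in NOR. Gfap, the intermediate filament of reactive glia, stood at 143.8 FPKM in OIR and 43.9 in NOR. The 10 endothelial markers were all above 0 as well, with a median of 0.79, at 210.6 FPKM in OIR and 121.4 in NOR. No marker of the ganglion cell, amacrine, horizontal or Müller lists was at 0 in both libraries. The 12 peripheral nerve markers, of which 11 were tested, had a median of 0.19 and summed to 771 FPKM in OIR and 810 in NOR, and the 12 pericyte and smooth muscle markers had a median of 0.58 at 252 and 205 FPKM. The part of these cell types in the levels of Gfra1, Gfra2, Ret or Ntrk3 was not tested.

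**Figure D4:**
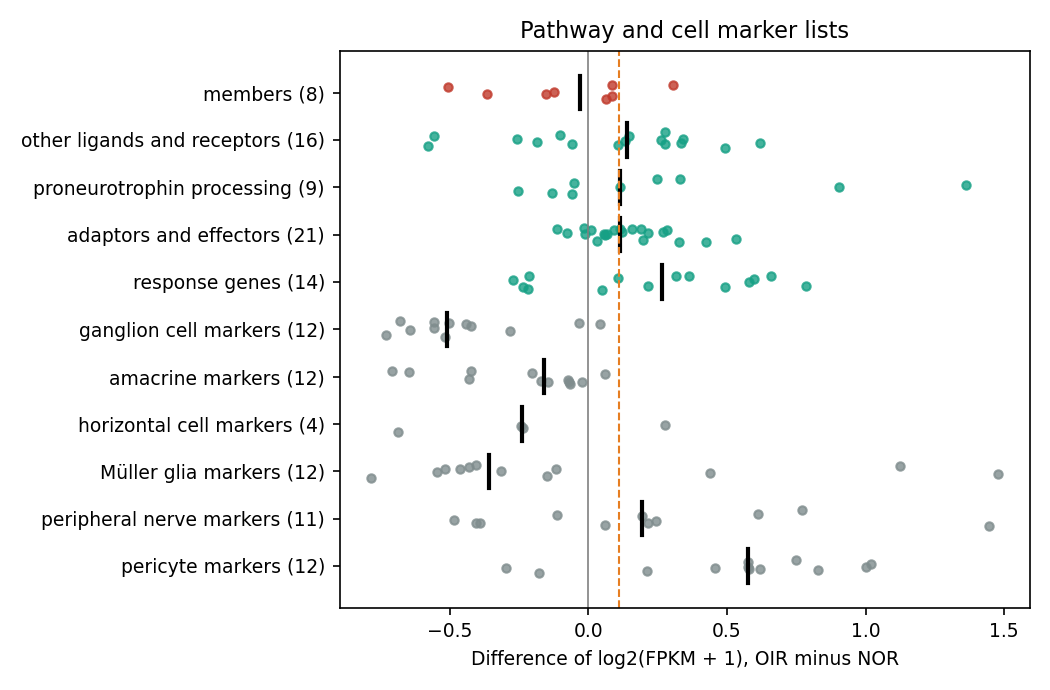
Difference of log2(FPKM + 1), OIR minus NOR, for each tested gene of the member list (red), 4 pathway lists (green) and 6 cell marker lists (grey), with the number of tested genes in brackets; black bars are medians and the dashed line is the median of all tested genes. The medians of the members, -0.03, and of ganglion cell markers, -0.51, lie left of the dashed line, and that of pericyte markers, 0.58, lies right of it.

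The order of levels among the members depends on the transcript length behind FPKM. The count, the FPKM and the library total give the length used, which was the same in OIR and NOR, within 0.1%, for each of the 22320 genes detected in both. For 6 of the 9 members this length lay within 1 base of the mean over the gene's transcripts in GENCODE M21. For Ntrk2 it was 7772 bases against a mean of 3528, for Gfra2 3462 against 2092 and for Gdnf 3509 against 3674. The table's own listed length was far greater than the length used for Ntrk3, 19703 bases against 2401, and for Gfra1, 4641 against 2055. With the listed length, Ntrk3 would stand at 1.62 FPKM in OIR and 1.29 in NOR, and Gfra1 at 6.83 and 8.94. Ntrk3 would then stand among the ligands, next below Ntf3 at 1.79 FPKM in OIR and 1.63 in NOR. Ntrk3 and Ntf3 would not differ beyond counting error in either library. Ngfr, with 1 transcript and 3446 bases on both counts, would then have the highest level in both libraries, at 11.2 FPKM in OIR and 10.6 in NOR, although in NOR it did not differ from Ntrk2, at 9.79, beyond counting error. The ratio of OIR to NOR for a gene is the same with either length.

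**Figure D5:**
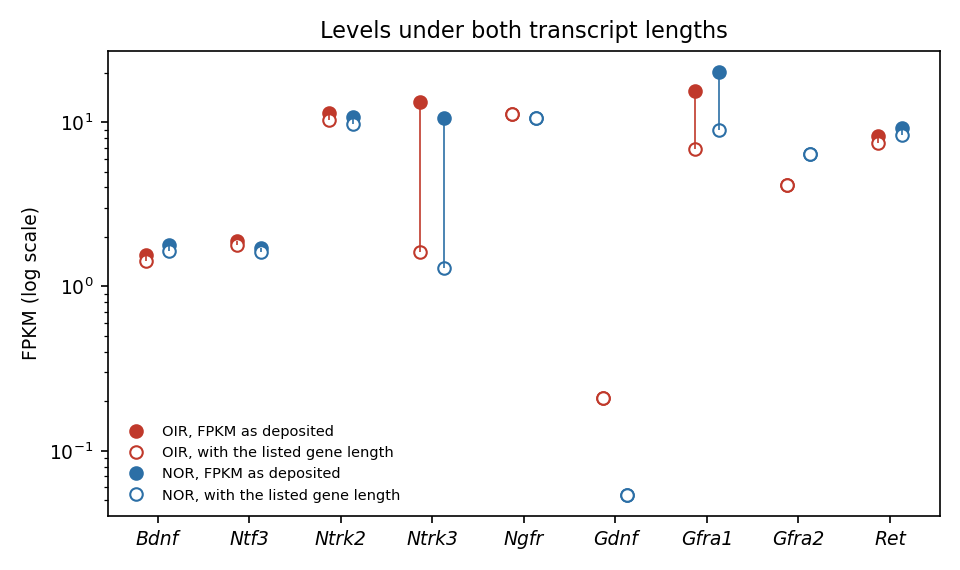
FPKM of each member as deposited (filled) and recomputed with the listed gene length (open), in OIR (red, left of each pair) and NOR (blue), on a log scale. The step is largest for Ntrk3, which stands at 13.3 as deposited and 1.62 with the listed length in OIR, then for Gfra1, and there is none for Ngfr, Gdnf and Gfra2.

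Among 20 other ligands, receptors and co-receptors of both families, 16 were tested and none was at least 2-fold higher or lower. Their median difference was 0.14. At 1.5-fold, 1 was higher, Sorl1, a sorting receptor that handles neurotrophin receptors among other cargo, at 34.8 FPKM in OIR and 22.3 in NOR with a ratio of 1.56 (1.45 to 1.68).

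Within the GDNF family, Gfra4 also stood lower in OIR by its counting interval. Gfra4, the persephin co-receptor, had 209 reads in OIR and 245 in NOR, a ratio of 0.659 (0.545 to 0.796). Gfra3, the artemin co-receptor, had 14 reads in each library and was not tested. Nrtn, the neurturin gene, stood at 13.7 FPKM in OIR and 12.7 in NOR, a ratio of 1.08 (0.902 to 1.30). Artn had 17 and 5 reads and Pspn 22 and 18, with intervals that included 1. The lowest difference in the list was -0.58 for Ngfrap1, a p75NTR-associated protein, at 99.1 FPKM in OIR and 148.5 in NOR, followed by Gfra4 at -0.56 and Sorcs1, a sortilin-family receptor, at -0.26.

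Genes that act on neurotrophin precursors formed another list. Of its 11 genes 9 were tested, with a median of 0.11. Plat, the tissue plasminogen activator that starts the plasmin cleavage of proBDNF, stood at 15.1 FPKM in OIR and 7.63 in NOR, a ratio of 1.98 (1.74 to 2.27). For Furin, which cuts neurotrophin precursors inside the cell, the ratio was 1.27 (1.18 to 1.37). The lowest 3 were Pcsk5 at -0.25, Pcsk6 at -0.13 and Mmp9 at -0.06. Plg, the plasminogen gene, had 1 read in each library.

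All 21 adaptor and effector genes downstream of Trk and RET were tested, and none reached 1.5-fold by the difference of log2(FPKM + 1). Their median of 0.11 equalled that of all tested genes to 2 decimals. The highest were Sh2b2 at 0.53, Gab1 at 0.42 and Frs2, which docks on Trk receptors and RET, at 0.33. The lowest were Dok6 at -0.11, Shc2 at -0.08 and Shc3 at -0.02. By read shares, Sh2b2 had a ratio of 1.79 (1.23 to 2.65), at 2.34 FPKM in OIR and 1.31 in NOR. The interval lay above 1 for 10 of the 21, against 36.7% of tested genes, and below 1 for 0, against 14.7%.

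Of 15 genes known to respond to neuronal activity or growth factors 14 were tested, 3 were at least 1.5-fold higher and none was 2-fold apart. The 3 highest were Fos at 0.79, Egr1 at 0.66 and Etv4 at 0.60. The 3 lowest were Scg2 at -0.27, Vgf, a secreted peptide precursor induced by BDNF, at -0.24 and Nptx2 at -0.22. Vgf had 343 reads in OIR and 318 in NOR, a ratio of 0.833 (0.713 to 0.974). Creb1, the factor that binds the cAMP response element, stood at 38.0 FPKM in OIR and 26.7 in NOR, a ratio of 1.42 (1.32 to 1.54).

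With 2 libraries, likeness between genes is nearness of both levels. On the log2(FPKM + 1) scale, 119 genes lay within 0.1 of Ntrk3, the nearest being Tcf20, Snx14 and Rragd. Within 0.1 of Gfra2 lay 19 genes, the nearest being Wnt5b, Ppcs and Gpr158.

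In the authors' deposited table, none of the 9 genes is marked as changed, and each has an adjusted p of 0.99995 from a comparison of 1 library with 1 library. The log2 fold changes in the authors' deposited table are lowest for Gfra2, -0.75, and Gfra1, -0.53, and highest for Gdnf, 1.81.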

How the data were processed

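RNA of mouse eyeballs was sequenced from 1 OIR and 1 NOR library. The submitters' processing notes name mm10 as the build and HTSeq 0.6.1, TopHat2 2.0.12 and Bowtie2 2.2.3 as tools, without settings or use of strand. The deposited table gives read counts and FPKM per gene and library, per the file headers. It also holds a scaled signal, the deposited counts divided by 1 factor per library (21.4 for OIR and 15.0 for NOR). The authors also deposited a log2 fold change and p-values, whose tool neither labels nor headers name, and a gene length. After 5 broken lines were dropped, 47644 genes remained.

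Members and lists were chosen with earlier results of these data known. Differences are those of log2(FPKM + 1), OIR minus NOR, among genes that reached an FPKM of 1 in OIR or NOR. Read counts have exact Poisson intervals and read-share ratios exact conditional (Clopper-Pearson) intervals, both at 95%. Ratios of ratios have the exact conditional interval of an odds ratio. Python 3.11.15 with SciPy 1.17.1 was used, and the procedure was tested on simulated counts. Named genes were the 9 members, always the 3 highest and 3 lowest tested genes of each pathway list, other tested genes of those lists, and the 3 genes nearest to the highest and the lowest member; some genes of these lists are not reported here. Artn, Gfra3 and Plg, under an FPKM of 1, and the cell markers Gfap and Glul fall outside that rule and were chosen after their values were seen. Promoter letters are RefSeq's for GRCm38.p6, searched on both strands. Alternatives were 2 other pseudocounts, 2 other filters, 2 other fold thresholds, centring, TPM, CPM, the authors' factors, length bins, summed rows and the mean; the listed gene length was added after the data were seen.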

Additional observations from a re-analysis of the deposited data

How the results depend on the processing

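No tested member was at least 2-fold higher or lower in OIR under any setting tried. Over all genes, the 487 higher and 114 lower became 924 and 254 with a pseudocount of 0.1, 998 and 273 with 0.01, 251 and 27 with an FPKM minimum of 5, 734 and 147 on TPM, 883 and 312 on TPM without lens, muscle, red cell, ribosomal and mitochondrial genes, and 451 and 30 on CPM. The median difference of the tested members moved from -0.03 to -0.14 with centring on the median of tested genes (-0.142) or with the authors' library factors (-0.138), and to -0.24 with centring within 20 bins of transcript length. It turned positive on TPM, at 0.05, and with no filter, at 0.06, where Gdnf is counted too. Under the other 7 settings it ran from -0.10 to -0.03. Ntf3, Ntrk2 and Ngfr changed sign with centring on the median of tested genes, with the authors' library factors and with centring within bins of transcript length. The cause was not tested. Gfra1, Gfra2, Ret and Bdnf stayed negative and Ntrk3 and Gdnf positive in all settings that gave a value. The ranges were -0.66 to -0.45 for Gfra2, -0.50 to -0.28 for Gfra1, -0.35 to -0.07 for Ret and 0.15 to 0.40 for Ntrk3. Summing rows of a symbol changed nothing for the members, since each has 1 row. No paired analysis was possible because each group has 1 library. Depth limits the ligands: Gdnf rested on 15 reads in OIR and 3 in NOR.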
